A study of Mus musculus with 39 samples.

Results

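In the livers of PPARα-null mice, 12 probes of 25295 tested responded more to PFOA than to pirinixic acid, and the named genes among them were the cytochrome P450s Cyp2c55 and Cyp2b10, the carboxylesterases Ces1g and Ces2a, and S100a8, Col1a1, Cnmd and Prss8. The comparison is a difference of differences: the response to PFOA at 3 mg/kg, measured against water, minus the response to pirinixic acid at 50 mg/kg, measured against methylcellulose. It uses 16 of the 39 arrays of the study, 4 in each of the 4 groups, and was chosen by genotype and treatment, not by any measured value. The groups are PPARα-null with water, PPARα-null with 3 mg/kg PFOA, PPARα-null with methylcellulose, and PPARα-null with pirinixic acid.

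All were adult males on a 129SV background that had received their compound or vehicle by gavage on 7 consecutive days, and all 4 groups lack the receptor PPARα. PFOA, perfluorooctanoic acid, was given as its ammonium salt in deionised water, and pirinixic acid, named by a Wyeth code in the labels and on the plots, in 0.5% methylcellulose. Vehicle and dose therefore differ between the compounds, so each compound is set against its own vehicle, and compound, dose and vehicle cannot be told apart in the difference. Each array carried digoxigenin-labelled RNA from whole liver on an Applied Biosystems mouse array, the study names 4 animals per group, and PPARα-null mice given 1 mg/kg PFOA (4 arrays) and wild-type mice given the same treatments (15 arrays) are set beside the comparison.

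PPARα is a nuclear receptor for fatty acids that, when activated, raises the genes of peroxisomal, mitochondrial and microsomal fatty acid oxidation in liver. Pirinixic acid is a synthetic activator of that receptor, and PFOA is a perfluorinated fatty acid that also activates it. CAR and PXR are related receptors that respond to foreign chemicals and raise cytochrome P450s, carboxylesterases, glutathione transferases and glucuronosyltransferases. Cyp2b10 and Cyp2c55 are widely used as readouts of CAR and PXR in mouse liver.

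The promoters of the 4 named genes of drug and ester metabolism are shown because these called genes share that function. All 12 called probes moved in the same direction, so direction does not set these genes apart. Each runs from 250 bases before to 50 after the gene's start in RefSeq (build GRCm38.p6), and is printed 5′ to 3′ on the gene's own strand. Capitals mark every match, on either strand, to AGGTCA or AGTTCA, half-sites bound by nuclear receptors, or to ATAAAA, a form of the TATA box. The regions are chr19:39006769-39007068 on the plus strand for Cyp2c55, chr7:25897408-25897707 on the plus strand for Cyp2b10, chr8:104733753-104734052 on the plus strand for Ces2a and chr8:93337160-93337459 on the minus strand for Ces1g.
Cyp2c55: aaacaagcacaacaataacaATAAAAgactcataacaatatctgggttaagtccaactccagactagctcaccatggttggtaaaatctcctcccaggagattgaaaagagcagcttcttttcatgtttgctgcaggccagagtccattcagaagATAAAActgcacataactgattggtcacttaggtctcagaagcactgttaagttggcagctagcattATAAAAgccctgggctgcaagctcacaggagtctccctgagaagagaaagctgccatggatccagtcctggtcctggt
Cyp2b10: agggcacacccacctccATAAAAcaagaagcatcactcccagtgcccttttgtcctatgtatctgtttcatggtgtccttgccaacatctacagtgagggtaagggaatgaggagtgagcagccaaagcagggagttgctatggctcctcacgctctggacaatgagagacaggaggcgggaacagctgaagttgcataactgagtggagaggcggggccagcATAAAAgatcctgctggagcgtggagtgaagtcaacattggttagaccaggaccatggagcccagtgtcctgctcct
Ces2a: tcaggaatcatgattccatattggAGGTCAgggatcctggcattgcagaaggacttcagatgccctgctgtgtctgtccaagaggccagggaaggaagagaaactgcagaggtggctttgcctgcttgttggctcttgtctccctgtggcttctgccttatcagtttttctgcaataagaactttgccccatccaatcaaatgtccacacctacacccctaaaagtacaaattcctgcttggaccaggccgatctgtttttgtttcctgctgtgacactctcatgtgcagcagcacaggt
Ces1g: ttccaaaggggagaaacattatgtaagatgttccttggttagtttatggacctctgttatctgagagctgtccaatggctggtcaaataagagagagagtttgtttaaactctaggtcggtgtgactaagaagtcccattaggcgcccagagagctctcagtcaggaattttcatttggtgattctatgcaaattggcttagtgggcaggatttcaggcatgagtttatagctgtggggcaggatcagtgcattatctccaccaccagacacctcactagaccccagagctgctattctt
The Cyp2c55 window held 3 matches to ATAAAA and the Cyp2b10 window 2, the Ces2a window held 1 match to AGGTCA, and the Ces1g window held none; no marked match overlaps another. Of 32851 RefSeq promoters of the same length, 16.3% held AGGTCA, 14% held AGTTCA and 18.5% held ATAAAA. A match is a run of letters, not a shown binding site. Of the other named genes with a larger PFOA response, Cnmd and S100a8 are in the same promoter table, and Col1a1 and Prss8 are named only.

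Across the 25295 probes with a value on every array, the PFOA and pirinixic acid responses were compared with limma, which fits every probe and moderates its variance, and a probe was called when its Benjamini-Hochberg adjusted p was under 0.05. The 12 called probes (0.0474%) were all higher, meaning that the PFOA response exceeded the pirinixic acid response. No probe was called lower by limma, while 504 probes were higher and 800 lower at an unadjusted p under 0.05 (5.16% of those tested). The median difference of all probes was -0.059 on the log2 scale. Of the 12 probes, 8 have 1 gene symbol, 1 has several and 3 have none. On 11 of the 12, all 4 PFOA arrays lay above all 12 other arrays, a pattern found on 139 of all tested probes (0.55%); Prss8 is the exception.

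Each response was also tested against its own vehicle. PFOA against water called 66 probes higher and 10 lower (0.3% of those tested; 0.261% higher and 0.0395% lower), and all 12 probes of the comparison were among the 66, a count that shares the PFOA and water arrays. Pirinixic acid against methylcellulose called 0 probes with limma, where 456 were higher and 235 lower at an unadjusted p under 0.05 and the smallest adjusted p was 0.9999. Over all 25295 probes the median size of the response was 0.25 for PFOA and 0.177 for pirinixic acid on the log2 scale, and 1156 and 559 probes differed at least 2-fold from their vehicle. On the 66 probes that rose with PFOA, which were chosen by that response, the median was 1.60 for PFOA and 0.082 for pirinixic acid; this is a description, since the choice fixes the first value. The treated groups set directly against each other, with no vehicle subtracted, differed on 61 probes (0.241%), of which 55 (0.217%) were higher and 6 (0.0237%) lower with PFOA. Methylcellulose against water called 0 probes with limma, where 2931 (11.6%) passed an unadjusted p under 0.05. At that level the share was 8.35% for PFOA against water and 2.73% for pirinixic acid against methylcellulose. The vehicle groups thus differed at that level on more probes than either compound did from its own vehicle. These groups are also unbalanced over the array sets described below, so vehicle and array set are not separated in that count. The gap between the vehicle groups enters the difference of responses. The counts depend on the arrays used: the 12 became 5 when only the 16 arrays of the comparison were fitted, and 7 without methylcellulose replicate 3.

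**Figure D1:**
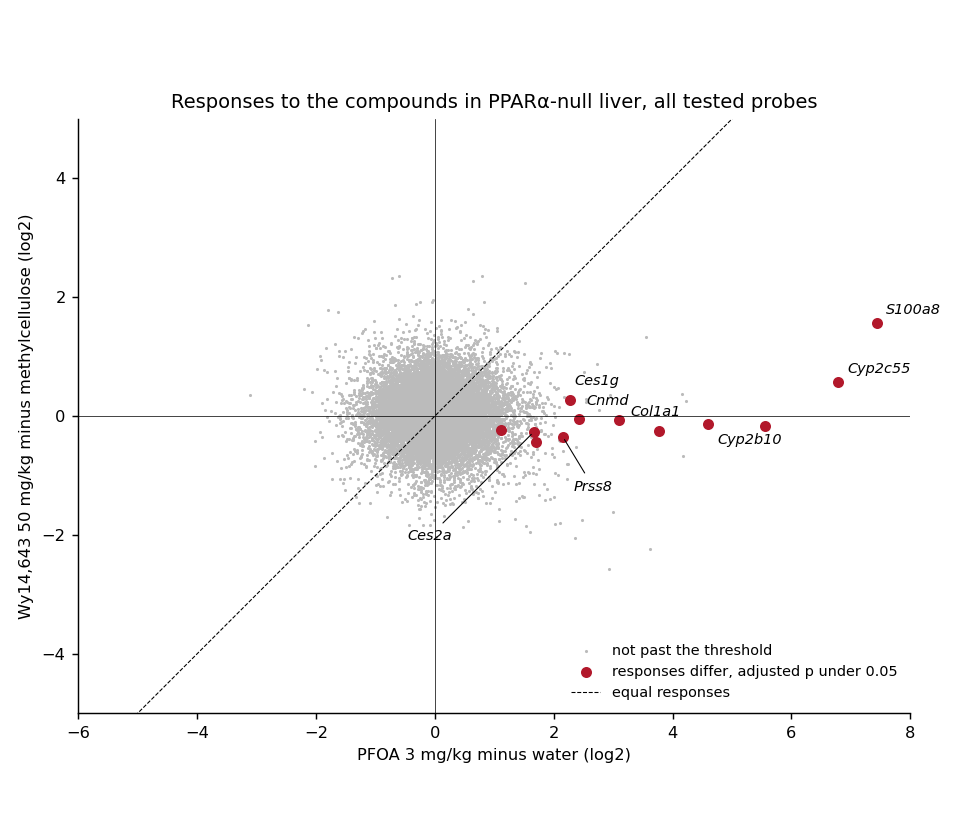
Each point is a probe, with its PFOA response (3 mg/kg minus water, log2) on the horizontal axis and its pirinixic acid response (50 mg/kg minus methylcellulose, log2) on the vertical axis, both in PPARα-null liver. The 12 called probes, in red, lie to the right of the dashed line of equal responses, between -0.43 and 0.56 on the vertical axis except for S100a8 at 1.57.

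Facts of the whole data set that touch these values are as follows. Arrays of the same group correlated with a median of 0.959 (24 pairs) and arrays of different groups of the comparison with 0.957 (96 pairs). On 157 probes the arrays fall into a set of 16 and another of 23 that the labels do not record; each set holds 2 PFOA and 2 pirinixic acid arrays of the comparison, while the smaller holds 3 of the 4 water and 1 of the 4 methylcellulose arrays. None of the 12 called or the named probes is among the 157. A mean over 583 probes of genes silent in liver, such as olfactory receptors, lay between 8.68 and 9.23 over all arrays. Its group mean was 8.77 with water, 8.88 with PFOA, 8.93 with methylcellulose and 8.96 with pirinixic acid, and its own difference of responses was 0.072. The Ppara probe had means of 15.2 to 16.01 in the 4 null groups and 16.2 to 16.65 in the wild-type groups, and since the labels do not place it against the deleted part of the gene, it does not check the genotype labels. Hepatocyte marker genes, which check the labelled tissue, had list means from 19.3 to 19.9 on every array of the comparison.

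Cyp2c55, a cytochrome P450 of the 2C family that oxidises drugs and fatty acids, had the largest difference among the named genes. Its log2 signal was 17.75, 17.83, 17.63 and 17.61 on the PFOA arrays and 11.08, 10.54, 11 and 11.04 on the water arrays. It was 11.22, 10.57, 11.72 and 11.53 with pirinixic acid and 10.32, 10.54, 11.71 and 10.22 with methylcellulose. The PFOA arrays stood apart from all others, and the pirinixic acid and methylcellulose arrays overlapped. PFOA raised it 110-fold over water, pirinixic acid gave a log2 difference of 0.56 (95% interval -0.35 to 1.48), and the responses differed by 6.22 ± 0.63 on the log2 scale (SE, n = 4 per group; limma adjusted p = 1.02e-06). The call held in all 16 fits that left out 1 array and in 12 of 13 other alternative fits. Over those alternatives the difference ran from 5.58, within the smaller array set alone, to 6.86.

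Cyp2b10, a P450 that CAR activators raise strongly in mouse liver, followed the same pattern with more scatter. Its signal was 17.26, 16.13, 16.05 and 17.08 with PFOA and 11.87, 12.16, 12.24 and 11.87 with water. It was 14.17, 11.85, 13 and 12.55 with pirinixic acid and 12.31, 13.08, 12.82 and 13.90 with methylcellulose. Every PFOA array exceeded every other array, and PFOA replicates 1 and 4, which belong to the smaller array set, lay about 1 log2 unit above replicates 2 and 3. The responses differed by 4.73 ± 0.82 (SE, n = 4 per group; limma adjusted p = 0.0082), from 4.60 for PFOA and -0.13 (95% interval -1.32 to 1.05) for pirinixic acid. Methylcellulose lay 1.00 above water (adjusted p = 0.504), the widest gap between vehicles among the 8 named genes. Within the array sets the difference was 4.13 and 4.77, and with the array set as a block it was 4.70.

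Ces2a and Ces1g encode carboxylesterases, enzymes that split esters in drugs and lipids. For Ces2a the 4 PFOA arrays lay at 19.35, 19.19, 19.44 and 19.21, and the water arrays at 17.47, 17.70, 17.83 and 17.52. Its pirinixic acid arrays lay at 17.66, 17.29, 17.79 and 17.68 and its methylcellulose arrays at 17.65, 17.94, 18.09 and 17.79. Only the PFOA arrays stood apart, by more than 1 log2 unit from the highest of the others, and the difference of responses was 1.93 ± 0.27 (SE, n = 4 per group; limma adjusted p = 0.00045), from 1.67 for PFOA and -0.27 (95% interval -0.65 to 0.12) for pirinixic acid.

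Ces1g also stood apart only with PFOA. Its signal was 16.98, 17.13, 17.33 and 17.12 with PFOA and 14.49, 15.13, 14.73 and 15.10 with water. It was 15.37, 15.46, 15.29 and 14.79 with pirinixic acid and 14.86, 15.01, 14.79 and 15.15 with methylcellulose. PFOA raised it 4.85-fold and the responses differed by 2.005 ± 0.32 (SE, n = 4 per group; limma adjusted p = 0.0039). Both esterases kept their call in all 16 fits that left out an array. Each also kept it in 11 of 13 other alternative fits, the fit of the 16 arrays alone among them, and lost it in 2.

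**Figure D2:**
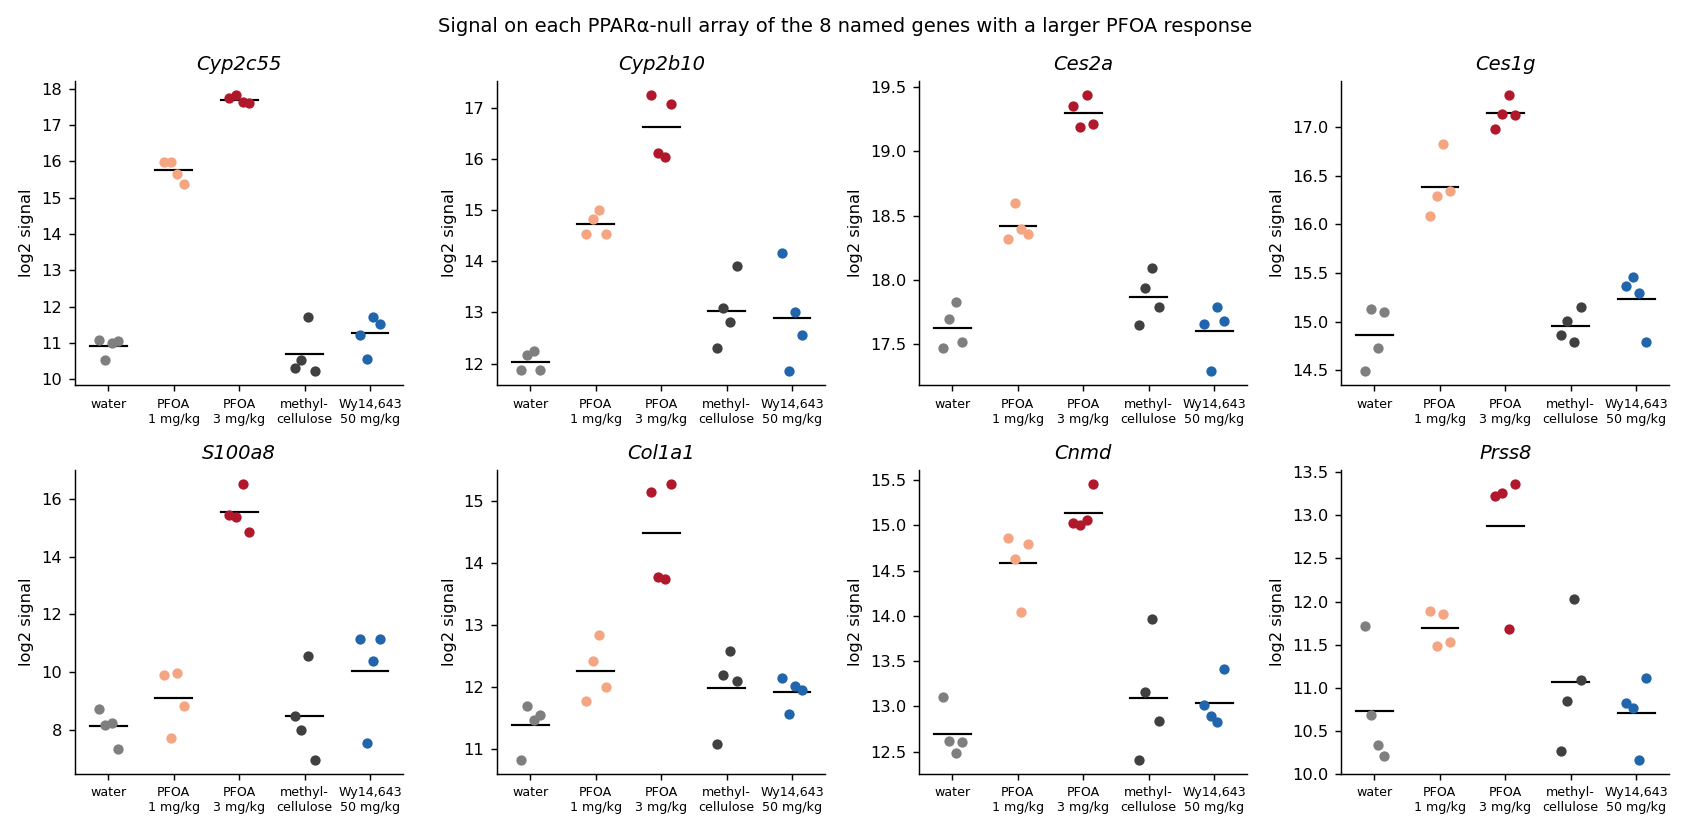
Dots give the log2 signal of each PPARα-null array, and bars the group mean, for water, 1 and 3 mg/kg PFOA, methylcellulose and 50 mg/kg pirinixic acid; the vertical axes differ between panels and do not start at 0. The 3 mg/kg PFOA arrays lie above the water, methylcellulose and pirinixic acid arrays in every panel but Prss8, where 1 PFOA array at 11.68 lies below a water and a methylcellulose array.

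The list of CAR and PXR genes held 25 measured genes. Cyp2c55, Cyp2b10 and Ces2a were called higher (0.0474% of all probes were called) and none lower; 21 of the 25 had a positive difference, with a median of 0.60 against -0.059 for all probes. Cyp2b13, a close relative of Cyp2b10, had a difference of 2.67 ± 0.77 (SE, n = 4 per group) that did not pass (limma adjusted p = 0.503), although all 4 PFOA arrays lay above the other 12; its other group means (8.55 to 8.94) lie below the array median of 9.14. Of the other measured 2C genes, Cyp2c37 stood at 1.51, Cyp2c54 at 0.53, Cyp2c29 at -0.20, Cyp2c38 at -0.87 and Cyp2c39 at -1.02, none called. Members of the 2C and 2B families share sequence, so their probes may not tell them apart. The receptors themselves did not pass: Nr1i3, which encodes CAR, had -0.15 (95% interval -0.66 to 0.36) and Nr1i2, which encodes PXR, 0.64 (-0.20 to 1.47).

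Among 23 genes of conjugation and ester hydrolysis, Ces2a and Ces1g were called and the median was 0.16. Ugt2b34, a glucuronosyltransferase, had a difference of 0.91 ± 0.20 (SE, n = 4 per group; limma adjusted p = 0.126) and the esterase Ces1e 1.25 (adjusted p = 0.452). None of 25 glutathione and NRF2 genes was called, with a median of 0.10. Ephx1, the microsomal epoxide hydrolase, came closest with 0.87 ± 0.18 (SE, n = 4 per group; limma adjusted p = 0.0648). Its PFOA arrays lay at 18.78, 18.55, 18.43 and 18.29 and the other 12 arrays between 17.39 and 17.83, with no overlap. PFOA against water alone called 3 of these 25 genes higher with limma, where 0.261% of all probes were called higher. They were Ephx1 (0.87, adjusted p = 0.00024), Gstm2 (1.35, 0.0094) and Gstm4 (1.31, 0.0087). The differences of responses of Gstm2 and Gstm4 were 1.45 and 0.94. Ugt2b34, Ces1e, Ephx1, Gstm2 and Gstm4 each had all 4 PFOA arrays above the other 12, a pattern found on 0.55% of all tested probes. Ugt2b34, Ces1e and Gstm4 were chosen after their values were seen, so their pattern is a description.

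S100a8 encodes a calcium-binding protein of myeloid cells that pairs with S100a9 as calprotectin. Its signal was 15.44, 15.37, 16.54 and 14.85 with PFOA and 8.73, 8.16, 8.22 and 7.34 with water. It was 11.15, 7.54, 10.39 and 11.13 with pirinixic acid and 8.46, 7.99, 10.54 and 6.95 with methylcellulose. The PFOA arrays lay more than 3 log2 units above every other array, while the pirinixic acid and methylcellulose arrays were scattered and overlapped. The responses differed by 5.87 ± 0.99 (SE, n = 4 per group; limma adjusted p = 0.0074), from 7.44 for PFOA and 1.57 (95% interval 0.14 to 3.00) for pirinixic acid. The pirinixic acid response did not pass (limma adjusted p = 0.9999). Fitted on the 16 arrays alone the adjusted p of the difference was 0.184. The water and methylcellulose means, 8.11 and 8.48, lie below the silent-gene mean of every array, so these differences are set against a signal no higher than that of silent genes, and their size depends on it.

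No other neutrophil marker was called. Its partner S100a9 had signals of 10.49, 10.38, 10.47 and 10.38 with PFOA, within the range of the other 12 arrays (9.58 to 11.27), and a difference of -0.22 (95% interval -1.21 to 0.76). The remaining 4 measured markers of that list had differences of -0.64 for Ltf, -0.48 for Elane, 0.15 for Retnlg and 1.12 for Camp, none called, and 2 of the 6 lay below the array median in all 4 groups. The mean over the 6, S100a8 included, ran from 9.73 to 10.6 on the PFOA arrays and from 8.69 to 9.89 on the others.

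Col1a1, the alpha 1 chain of type I collagen, also rose with PFOA. Its signal was 15.16, 13.78, 13.74 and 15.29 with PFOA and 10.82, 11.69, 11.47 and 11.55 with water. It was 12.15, 11.57, 12.01 and 11.95 with pirinixic acid and 11.08, 12.19, 12.58 and 12.09 with methylcellulose. The PFOA arrays did not overlap the rest and were again higher on replicates 1 and 4. The responses differed by 3.17 ± 0.54 (SE, n = 4 per group; limma adjusted p = 0.0079), and by 2.97 and 2.56 within the array sets; fitted on the 16 arrays alone the adjusted p was 0.102.

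No other collagen or stellate cell marker was called. Col1a2, whose product joins that of Col1a1 in the type I collagen fibre, had 12.15, 12.18, 12.70 and 12.20 with PFOA, and its difference was 0.29 (95% interval -0.22 to 0.79). Col3a1, the type III chain, had a difference of 0.12 (-0.67 to 0.92). Over the 9 measured stellate cell markers Col1a1 was the only gene called, and the median was -0.018, or 0.11 after cyclic loess. The list mean, Col1a1 included, ran from 11.7 to 12.2 with PFOA and from 11.5 to 12.2 on the other arrays.

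Cnmd and Prss8 complete the named genes. Cnmd encodes chondromodulin, a membrane glycoprotein known from cartilage; its PFOA arrays lay at 15.03, 15, 15.06 and 15.46, and the other 12 between 12.41 and 13.97. Its difference was 2.49 ± 0.45 (SE, n = 4 per group; limma adjusted p = 0.0132), and 0.0596 was the adjusted p without methylcellulose replicate 3. Prss8 encodes prostasin, a serine protease on epithelial membranes, with PFOA values of 13.22, 13.26, 11.68 and 13.37 that overlapped those of water (10.20 to 11.71) and methylcellulose (10.26 to 12.03). Its difference was 2.49 ± 0.50 (SE, n = 4 per group; limma adjusted p = 0.0467), and it kept the call in 4 of 16 fits that left out an array. Fitted on the 16 arrays alone, the adjusted p was 0.0532 for Cnmd and 0.503 for Prss8. The 4 called probes without a single gene symbol had differences from 1.35 to 5.71, each with no overlap between the PFOA arrays and the rest; 3 of these 4 kept the call in only 5 of 16 such fits. A called probe with no symbol showed the same split of the PFOA arrays as Cyp2b10 and Col1a1, only wider. Its PFOA arrays lay at 15.38, 12.07, 12.05 and 15.29, and the other 12 arrays between 8.603 and 10.11. Its difference was 4.04 over all arrays, 5.67 within the smaller array set and 2.86 within the larger. The other called probes with no symbol split the same way on the PFOA arrays. Their values there were 12.24, 11.41, 11.32 and 12.02 on 1 probe and 14.07, 13.38, 13.45 and 14.02 on another. The called probe with several symbols did not, at 15.3, 15.39, 15.61 and 14.76. The part of the array set in these values was not tested further.

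The genes of fatty acid oxidation, which PPARα controls, were not called in this comparison. None of 29 peroxisomal genes passed (median 0.031, 16 positive), none of 15 mitochondrial genes (median 0.11) and none of 30 genes of omega-oxidation and lipid handling (median 0.085). Ehhadh, the peroxisomal bifunctional enzyme, had 17.07, 16.86, 15.79 and 16.71 with PFOA and 16.27, 16.04, 15.88 and 15.37 with pirinixic acid, and its vehicle arrays lay between 15.72 and 16.75. The groups overlapped, and the difference was 0.70 (95% interval -0.79 to 2.20; limma adjusted p = 0.955).

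Some members of these lists had larger values with PFOA. Cyp4a31, a fatty acid omega-hydroxylase, had 12.04, 12.40, 12.10 and 11.39 with PFOA, above all other arrays (6.36 to 10.43), and a difference of 3.97 ± 1.16 (SE, n = 4 per group; limma adjusted p = 0.503). Against water alone the PFOA response was 4.22 (adjusted p = 0.0094). Its water, methylcellulose and pirinixic acid means, 7.76, 7.91 and 8.16, lie below the silent-gene mean of every array, so no fold is given. Its relative Cyp4a14 had 13.69, 13.80, 12.62 and 14.89 with PFOA, but water arrays from 6.63 to 14.15 and methylcellulose arrays from 7.15 to 14.54, so its 5.85 ± 2.34 (SE, n = 4 per group; limma adjusted p = 0.837) rests on vehicles that scatter over 7 log2 units. Acaa1b, a peroxisomal thiolase, had a difference of 1.45 (adjusted p = 0.36) and Acadl, the long-chain acyl-CoA dehydrogenase, 1.25 (adjusted p = 0.503); in both genes all 4 PFOA arrays exceeded the other 12, and in both PFOA against water passed (adjusted p = 0.0014 and 0.0094). Pdk4, which restrains glucose oxidation, had -0.43 (95% interval -3.04 to 2.18), with 0.10 when PFOA replicate 4 was left out, and Fgf21, a fasting hormone of the liver, -0.92 (-3.15 to 1.31), with all 4 group means below the array median.

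No gene was called lower in the fit reported here, and the genes nearest to that side included interferon-inducible ones. Ifit1, an antiviral RNA-binding protein, had 9.97, 9.19, 9.84 and 9.95 with PFOA and 10.86, 10.70, 10.47 and 10.88 with water. It had 11.04, 11.29, 11.49 and 10.38 with pirinixic acid and 10.26, 9.58, 9.57 and 10.18 with methylcellulose. In each pair the groups did not overlap, lower with PFOA by 0.99 and higher with pirinixic acid by 1.15, and the difference of -2.14 ± 0.45 (SE, n = 4 per group) did not pass (limma adjusted p = 0.083). It did pass in 4 other fits: with array weights (adjusted p = 0.0291), over probes with a mean above the median (0.0316), under the replicate block (0.0409) and without pirinixic acid replicate 4 (0.0334). Its adjusted p ran from 0.0291 to 0.9999 over 13 alternatives and from 0.0334 to 0.252 over the 16 fits that left out an array. The vehicles differed by 0.83 on this gene, with water above methylcellulose (adjusted p = 0.367), a gap close in size to each response.

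Over 22 measured interferon-inducible genes, 0 were called by limma in either direction, 21 had a negative difference and the median was -0.92, against -0.059 for all probes. The list's median PFOA response was -0.42 and its median pirinixic acid response 0.55. Irf7, a transcription factor of the interferon response, had a difference of -1.60 ± 0.47 (SE, n = 4 per group; limma adjusted p = 0.503) and Igtp, an interferon-induced GTPase, -1.30 (adjusted p = 0.514). Ifi27l2b was the one positive member, at 1.85 (adjusted p = 0.58), and rose with PFOA against water by 2.73. The mean over the list ran from 12.1 to 12.6 on the PFOA arrays, 12.6 to 12.8 with water, 12.7 to 12.96 with pirinixic acid and 12.1 to 12.4 with methylcellulose. The vehicles thus did not overlap on this list: its group mean was 12.69 with water and 12.28 with methylcellulose. That gap enters the difference of responses, and the part of the vehicle in it was not tested. Other genes with the smallest p on this side were Trim62 (-2.54, adjusted p = 0.207), the interferon-induced Ifi35 (-0.70, 0.268) and the kinesin Kif18a (-2.54, 0.345). Tubd1, Inpp5e, Lum and Kri1 followed, and none of these genes was called. In the order named, methylcellulose minus water was -0.77, -0.50, -2.055, -1.47, -0.46, -0.81 and -0.41. PFOA set directly against pirinixic acid gave -1.77, -0.20, -0.49, -1.16, -0.79, -0.23 and -0.39. The gap between vehicles thus enters these values too, and its part was not tested.

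Markers of Kupffer cells, the resident macrophages of liver, had negative differences on all 10 measured genes, with none called and a median of -0.57. Vsig4, a complement receptor of these cells, had -0.83 ± 0.25 (SE, n = 4 per group; limma adjusted p = 0.608), and C1qb, a chain of complement C1q, -0.93 (adjusted p = 0.748). Median responses were -0.25 for PFOA and 0.39 for pirinixic acid. The list mean lay at 12.6 to 13.1 with PFOA, 12.9 to 13.1 with water, 12.6 to 13.1 with methylcellulose and 12.9 to 13.9 with pirinixic acid, so it overlapped between all groups. In whole liver, fewer cells of a type and less RNA per cell cannot be told apart, and the part of these markers in the interferon-inducible values was not tested.

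**Figure D3:**
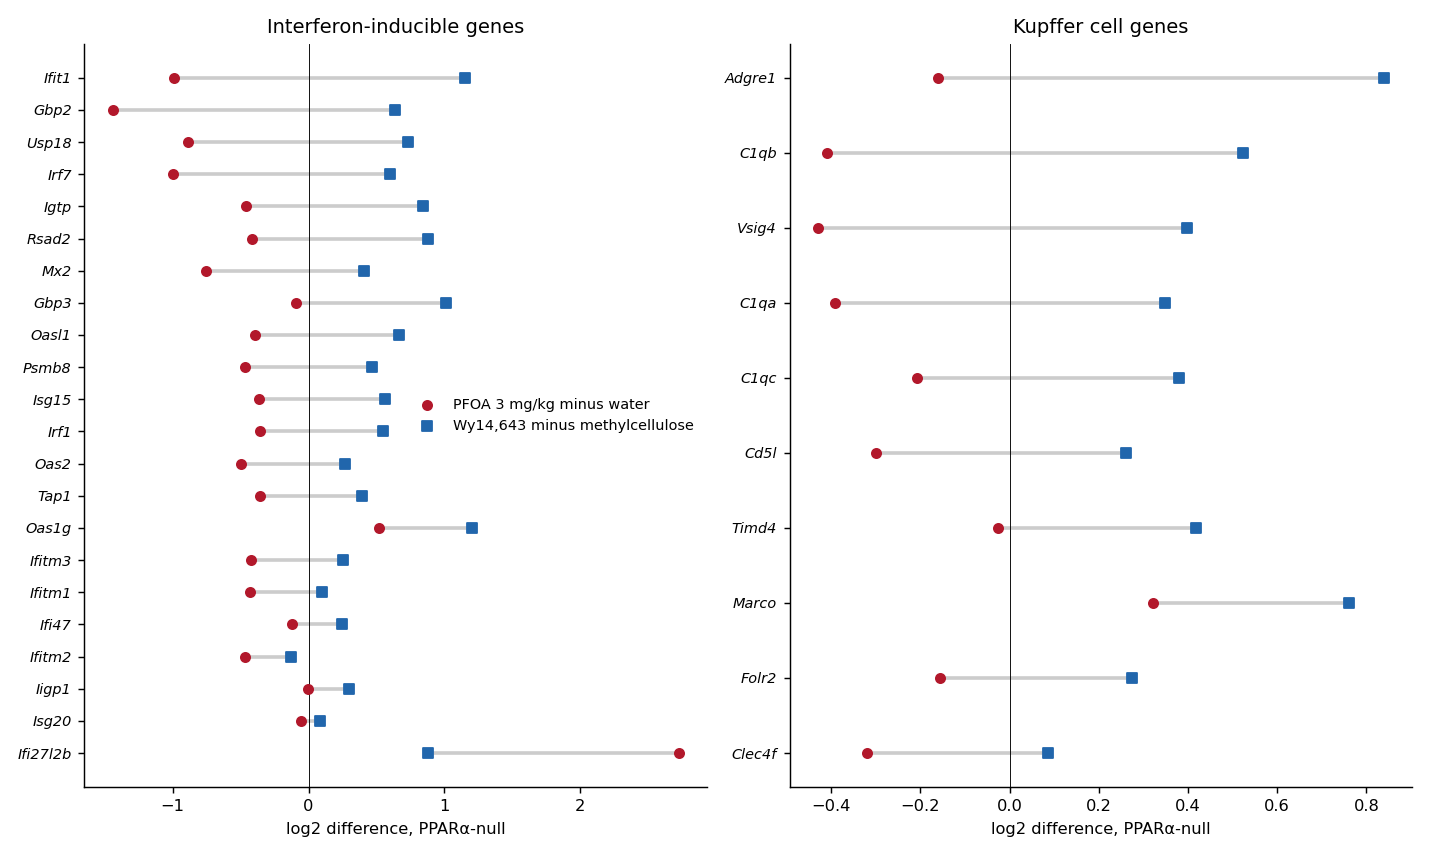
For each measured interferon-inducible gene (left) and Kupffer cell marker (right), the red circle is PFOA at 3 mg/kg minus water and the blue square pirinixic acid minus methylcellulose, in log2 units, in PPARα-null liver; the horizontal scales differ. The square lies to the right of the circle for 21 of 22 genes on the left and all 10 on the right, though none passed the test of the difference.

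The other lists held no called gene. Cell cycle genes had a median of 0.55 over 24 measured genes, 18 of them positive, and 7 of the 24 lay below the array median in all 4 groups. Mcm6, a helicase subunit of DNA replication, stood at 2.30 (adjusted p = 0.642) against vehicle means of 8.45 and 8.24, below the array median. Amino acid catabolism and urea cycle genes had a median of -0.42 with 4 of 27 positive. Of these, Mat1a, which makes S-adenosylmethionine, stood at -0.87 (adjusted p = 0.56) and Oat, ornithine aminotransferase, at -1.35 (adjusted p = 0.785). All 4 PFOA arrays of Oat lay below the other 12, a pattern found on 59 of all tested probes (0.233%). Lipoprotein genes had -0.38 over 15. Cholesterol genes had -0.24 over 16, with median responses of 0.23 to PFOA and 0.44 to pirinixic acid. The mean of that list was 16.27 with water, 15.91 with methylcellulose, 16.51 with PFOA and 16.32 with pirinixic acid, with overlapping arrays. Hmgcs1, an early enzyme of that pathway, stood at -0.85. Its methylcellulose minus water value was -0.67, and PFOA set directly against pirinixic acid gave -0.18. The part of the vehicle in these values was not tested. Lists of fatty acid synthesis (24 genes, median 0.071), glucose metabolism (16, -0.16), complement and coagulation (31, -0.16), the proteasome (23, 0.0050) and oxidative phosphorylation (28, -0.13) stood nearer to the median of all probes. Hepatocyte markers had a median of -0.32, with 0 of 7 called. Cyp7a1, the rate-limiting enzyme of bile acid synthesis, had -0.82 (95% interval -3.17 to 1.54) on 1 probe and -0.64 on its other probe, and its bile acid list -0.14 over 22 genes.

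**Figure D4:**
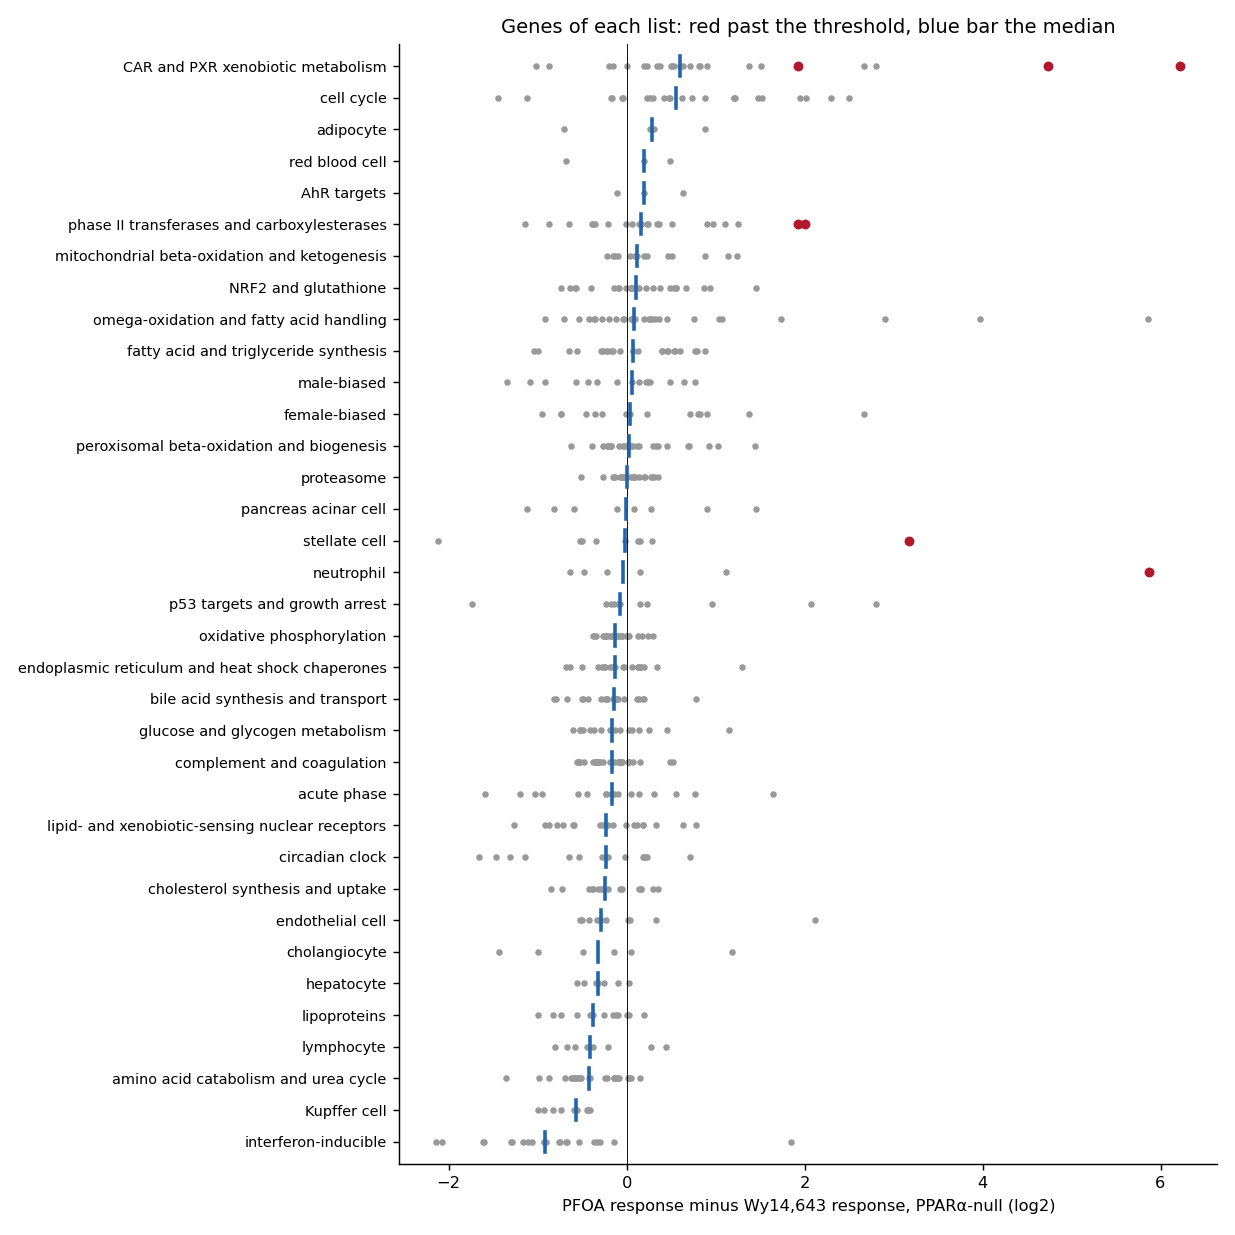
Each point is a measured gene, placed by its difference of responses (PFOA minus pirinixic acid, log2) in PPARα-null liver; rows are the 25 pathway and 10 cell type lists ordered by median, blue bars are medians and red points are genes with an adjusted p under 0.05. Red points occur on the CAR and PXR, conjugation and carboxylesterase, stellate cell and neutrophil lists, and the medians run from -0.92 for interferon-inducible to 0.60 for CAR and PXR genes.

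At 1 mg/kg PFOA the named genes had smaller values than at 3 mg/kg; the difference between doses was not tested here. Against water, PFOA at 1 mg/kg called 3 probes (0.0119%), all higher: Cyp2c55 by 4.83 (adjusted p = 1.05e-07), Ces1g by 1.52 (0.00158) and Cnmd by 1.88 (0.0123). Their 1 mg/kg arrays did not overlap those of any vehicle. S100a8 had 9.91, 7.70, 9.96 and 8.82 at 1 mg/kg, overlapping water, and a change of 0.99 (adjusted p = 1) where 3 mg/kg gave 7.44. Col1a1 changed by 0.87 at 1 mg/kg and 3.10 at 3 mg/kg, and Cyp2b10 by 2.69 (adjusted p = 0.182) and 4.60. With 1 mg/kg in place of 3 mg/kg, the difference from the pirinixic acid response called Cyp2c55 alone (0.00395% of probes), at 4.26 (adjusted p = 0.00357).

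In wild-type mice, which have PPARα, the same comparison called 3 probes (0.0119%), 1 higher and 2 lower. Cyp2c55 was higher there too, by 3.79 ± 0.66 (SE, n = 3 or 4 per group; limma adjusted p = 0.0268): its wild-type PFOA arrays lay at 14.79 to 15.13 and its pirinixic acid arrays at 10.39 to 12.33. The other 7 named genes had wild-type differences from -0.32 for Col1a1 to 1.74 for Cyp2b10, none called. S100a8 stayed between 7.50 and 9.15 on the wild-type PFOA arrays. Ces2a was at 17.73 to 18.04 with PFOA and 17.90 to 18.11 with water in wild-type mice, so the positive value of 0.94 there came with a lower level under pirinixic acid (15.97 to 17.51, against 17.70 to 17.99 with methylcellulose).

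The difference between genotypes was tested for every probe and called 1 (0.00395%). Fabp4, a fatty acid-binding protein, had 15.73 to 18.47 with pirinixic acid in wild-type mice and 12.56 to 12.99 in null mice, and its null-minus-wild-type difference was 3.70 (limma adjusted p = 0.0193) from 0.26 in null and -3.44 in wild type. That call was lost with the silent-gene mean as a covariate and in some fits that left out an array. For the 8 named genes the null-minus-wild-type differences ran from 0.99 for Ces2a to 6.04 for S100a8, with adjusted p from 0.261 to 0.455, so none was shown to differ between genotypes. Ehhadh reached 20.31 to 20.77 with PFOA and 20.28 to 20.84 with pirinixic acid in wild-type livers, against 15.37 to 17.07 in the treated null livers.

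**Figure D5:**
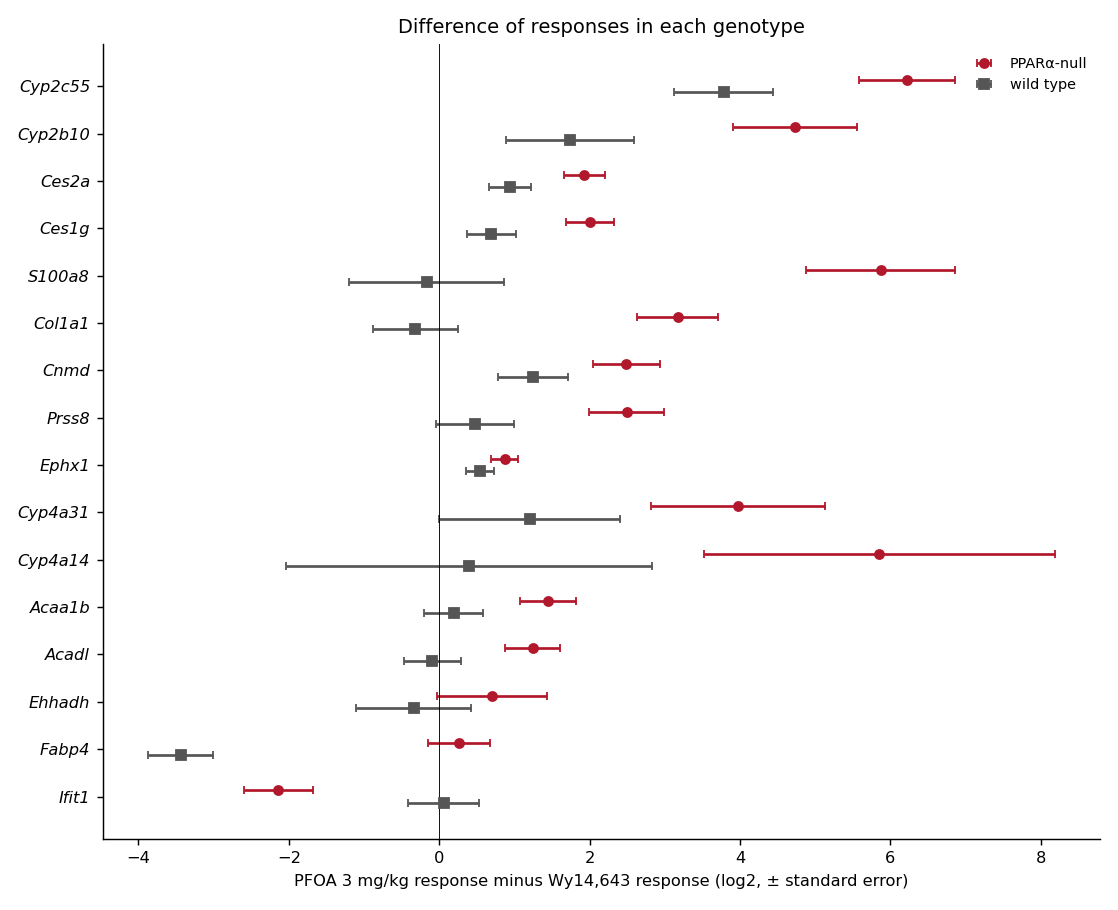
The difference of responses, PFOA at 3 mg/kg minus pirinixic acid, in PPARα-null (red circles) and wild-type mice (grey squares) for 16 genes, in log2 units with standard errors of the limma fit. Among these genes the difference between genotypes passed the threshold for Fabp4 alone, at 0.26 in null and -3.44 in wild type.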

How the data were processed

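The authors' deposited table holds log2 signals for 33012 probes on 39 arrays; the base is not written in the labels and was taken from the range of the values (4.85 to 21.55). Every array has the same median, 9.14. No label names the software or the normalisation, and none was added. The table lacks 14823 values (1.15%), and tests were run on the 25295 probes that lack none. Probe names come from the platform's annotation: 14411 probes have 1 gene symbol, 247 several and 18354 none. Cyp3a11 and Cyp4a10 have no probe of their own, and 1 further gene is not reported here.

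limma 3.58.1 (R 4.3.3) was run on the 39 arrays together, with a mean per group (29 residual degrees of freedom), and two-sided p-values were adjusted by Benjamini-Hochberg over the 25295 probes of each difference; the fit was tested on simulated data. Errors are standard errors of the fit unless given as ranges of arrays, and the number of arrays limits the precision. The array labelled wild type, 1 mg/kg PFOA, replicate 3 has Ehhadh and Cyp4a31 signals like those of null mice, against its label; it stays in the fit, where it enters only the variance, and without it 10 probes were called.

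The genes named were a fixed set of receptor targets, up to 15 called genes in each direction with 1 symbol and a group mean above 9.14, filled to 8 by the smallest p where fewer were called and passing over clone-number symbols, up to 5 each way for the genotype difference, and up to 4 called or else 2 further genes of each list; where several probes name a gene, the brightest stands for it. The members and lists were chosen with earlier results of these data known. S100a9, Col1a2, Col3a1 and the other genes named outside these rules, such as Ces1e and Ugt2b34, were chosen after their values were seen. Some were chosen as kin of S100a8 or Col1a1, and some because they responded to PFOA. For the latter a rise with PFOA is a description, since the choice favoured it.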

Additional observations from a re-analysis of the deposited data

Results flagged for a closer look

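A check of each group of 4 arrays for a single array far from the other 3 (Dixon's criterion at the 95% level) was run on 124 groups and marked 6; chance alone marks about 5% of groups. In PPARα-null mice, Cyp2c55 had a water array at 10.54 where the others lay between 11 and 11.08. Prss8 had a PFOA 3 mg/kg array at 11.68 against 13.22 to 13.37. Cnmd had a PFOA array at 15.46 against 15 to 15.06. Col1a2 had a PFOA array at 12.7 against 12.15 to 12.2. A called probe with several gene symbols had a methylcellulose array at 10.4 against 10.92 to 11.01, and a called probe with no symbol had a pirinixic acid array at 10.26 against 9.98 to 10.02.

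For Fabp4 the difference between the PFOA and pirinixic acid responses itself differed between genotypes, by 3.7 on the log2 scale (limma adjusted p = 0.0193).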

How the results depend on the processing

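The count of 12 probes became 5 when only the 16 arrays of the comparison were fitted, 1 in each array set alone (higher in the smaller, lower in the larger set), 20 with the silent-gene mean as a covariate and 21 with array weights; leaving out 1 array gave 7 to 14. PFOA against water, 76 probes, became 50 with the 16 arrays, 22 and 4 in the smaller and larger array sets and 199 with array weights, and 43 to 85 with 1 array left out (43 without water replicate 1, 45 without water replicate 3). Pirinixic acid against methylcellulose, 0 probes, became 1 in the smaller set and stayed at 0 with 1 array left out. The genotype difference, 1 probe, became 2 under the replicate block, 0 under the silent-gene covariate, and 0 to 8 with 1 array left out (8 without wild-type water replicate 1; 2 without null PFOA replicate 3 or wild-type pirinixic acid replicate 3; 0 without replicate 1 of null methylcellulose, null PFOA, null pirinixic acid or wild-type PFOA, null water replicate 3, or wild-type methylcellulose replicate 1 or 3). An array set alone leaves a vehicle group with 1 array, assumed to vary like the others. The replicate block gave 14 probes in place of 12 and 93 in place of 76; the replicate numbers do not clearly pair the arrays (median correlation of deviations 0.089, from -0.174 to 0.336 over 24 pairs). Ifit1 passed with the block (adjusted p = 0.0409), with array weights (0.0291), over probes with a mean above the median (0.0316) and without pirinixic acid replicate 4 (0.0334). The array set and silent-gene mean together, chosen after seeing the data, gave 18 and 88 probes. With 1 array left out, the sign turned for Pdk4, from -0.752 to 0.104 (without PFOA replicate 4), and for Nr1i3, from -0.237 to 0.0086 (without methylcellulose replicate 3).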
